A study of Mus musculus with 4 samples.

Results

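A list of 10 Wnt target genes, genes whose transcription is commonly read as a sign of canonical Wnt signalling, was followed on 4 microarrays of mouse dermis. The genes were Axin2, Lef1, Tcf7, Nkd1, Nkd2, Sp5, Apcdd1, Ccnd1, Myc and Kremen1. They were given as a list of names, chosen with earlier results of these data known, and no value entered the rule that picked their probe sets. Of these 10 genes, 9 had probe sets on the array, 26 probe sets in all, out of 18193 genes that the array annotation names. No probe set was named Tcf7 in that annotation, so Tcf7 was not analysed here. Of the 26 member probe sets, 20 were called present on all 4 arrays, 2 on some arrays and 4 on none. The 20 belonged to 8 genes, since the single probe set of Sp5 was absent throughout.

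Each array held RNA of dermal cells from one condition, so there was 1 array in each of 4 groups. All mice were C57BL/6 females, given as 10 weeks old, and all received intradermal injections 2 times a day for 4 days. The first group was abdominal dermis of virgin mice injected with DMSO, the solvent, and is called the virgin array. The second was dorsal dermis and the third abdominal dermis of pregnant mice injected with DMSO from 12 days post-coitus (dpc), called the dorsal and the abdominal array. The fourth was abdominal dermis of pregnant mice injected with PP2, a Src family kinase inhibitor, over the same days, called the PP2 array. The sample titles give the pregnant mice as 15 dpc and the sample descriptions as dpc 16. The sources used here do not say how many mice went into an array. With 1 array in each group there was no spread between replicates, no p-value could be given, and each difference below is a difference between 2 arrays. The 3 comparisons against the abdominal array share that array and so are not independent of one another.

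In canonical Wnt signalling, Wnt proteins at the cell surface stop a cytoplasmic complex from destroying beta-catenin, which then enters the nucleus and activates genes together with DNA-binding proteins of the TCF/LEF family. Many of the genes it activates encode inhibitors of the same pathway, so their transcripts serve both as readout and as negative feedback. In skin, dermal Wnt signalling is known for its part in fibroblast identity and in the dermal papilla, the mesenchymal cluster at the base of the hair follicle, and Lef1 is also transcribed in the growing hair matrix.

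The start regions of 3 members are shown, searched for the letters CTTTGA, used here as a core of the sites that TCF/LEF proteins bind. Read on the other strand, these letters are TCAAAG. Only CTTTGA and, in counts, its longer form CTTTGAT were searched, and the windows differ in whether they hold them. Each window runs from 250 bases before to 50 bases after a transcript start in RefSeq on GRCm38.p6, is printed 5' to 3' along the gene, and has the searched letters in capitals. The first Lef1 window is that of its most upstream start, chr3:131110047-131110346 on the plus strand, and the second that of a start inside the gene, chr3:131156044-131156343. The Axin2 window is chr11:108920099-108920398 and the Sp5 window chr2:70474673-70474972, both on the plus strand.
Lef1, upstream start: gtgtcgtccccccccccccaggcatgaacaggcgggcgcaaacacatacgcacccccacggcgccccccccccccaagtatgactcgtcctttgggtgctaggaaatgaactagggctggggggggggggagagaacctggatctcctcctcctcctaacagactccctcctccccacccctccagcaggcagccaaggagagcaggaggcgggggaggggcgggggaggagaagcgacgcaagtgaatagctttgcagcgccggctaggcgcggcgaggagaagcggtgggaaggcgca
Lef1, internal start: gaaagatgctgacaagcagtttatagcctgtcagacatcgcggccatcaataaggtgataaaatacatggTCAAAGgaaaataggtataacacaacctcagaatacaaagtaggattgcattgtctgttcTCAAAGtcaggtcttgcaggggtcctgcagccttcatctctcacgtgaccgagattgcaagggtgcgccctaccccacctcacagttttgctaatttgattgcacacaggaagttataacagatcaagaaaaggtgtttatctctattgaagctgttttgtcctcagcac
Axin2: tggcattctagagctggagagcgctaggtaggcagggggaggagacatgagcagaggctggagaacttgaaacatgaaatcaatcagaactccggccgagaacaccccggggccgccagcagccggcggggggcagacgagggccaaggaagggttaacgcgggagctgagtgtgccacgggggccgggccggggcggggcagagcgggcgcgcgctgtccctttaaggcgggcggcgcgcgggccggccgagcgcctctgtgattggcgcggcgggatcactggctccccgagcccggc
Sp5: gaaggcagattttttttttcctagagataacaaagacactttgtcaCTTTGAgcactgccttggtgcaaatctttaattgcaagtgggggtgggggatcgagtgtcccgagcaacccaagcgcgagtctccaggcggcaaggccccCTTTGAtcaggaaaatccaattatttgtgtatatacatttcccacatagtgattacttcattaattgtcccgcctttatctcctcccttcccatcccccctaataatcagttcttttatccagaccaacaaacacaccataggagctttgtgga

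The internal Lef1 start had TCAAAG at positions -180 and -120 from the start, and Sp5 had CTTTGA at -204 and -104, the latter as the longer form CTTTGAT. The upstream Lef1 start and Axin2 had none in these windows, which says only that the letters are not there. In all, 6 members had 10 windows in the RefSeq table, namely Axin2, Lef1, Nkd1, Nkd2, Sp5 and Tcf7, and 2 of the 10 windows held CTTTGA on either strand. Of all 32851 windows of that length 5257 held it, and 3.73% held CTTTGAT, which overlaps CTTTGA by construction. The arrays did not measure which start was used.

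Levels are given as MAS5 signals, a linear brightness in arbitrary units that combines the matched and mismatched probes of a probe set, each with a call of present, marginal or absent. Where several probe sets report a gene, the one with the highest mean log2 signal stands for the gene unless said otherwise, and a gene was counted as higher or lower when at least 1 of its probe sets differed by a ratio above 2 and was present on the brighter array. Signals of different genes depend on their probes and are not set against each other.

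Lef1, a DNA-binding partner of beta-catenin, had the widest range of the 8 detected members by brightest probe set, and it was lowest on the abdominal array. Its brighter probe set, 1454734_at, gave 1100 on the virgin, 1389 on the dorsal, 556 on the abdominal and 1558 on the PP2 array. The abdominal signal was thus below the other 3, which lay within 1.42-fold of each other. Lef1 was 1.98-fold higher on the virgin, 2.50-fold higher on the dorsal and 2.80-fold higher on the PP2 array than on the abdominal array, log2 ratios of abdominal over the other of -0.98, -1.32 and -1.49. The second probe set, 1421299_a_at, gave 253, 275, 111 and 322 on the virgin, dorsal, abdominal and PP2 arrays. It placed the 4 arrays in the same order, PP2, dorsal, virgin and abdominal from high to low, with log2 ratios of -1.18, -1.30 and -1.53 against virgin, dorsal and PP2. Among 11086 genes whose brightest probe set was present on all 4 arrays, 2.57% had a ratio of abdominal over virgin as low as Lef1 or lower, 1.70% over dorsal and 1.04% over PP2. Lef1 was also the only member more than 2-fold lower on the abdominal array than on each of the 3 others, by 1421299_a_at, a condition that 1.23% of 11400 genes met.

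**Figure D1:**
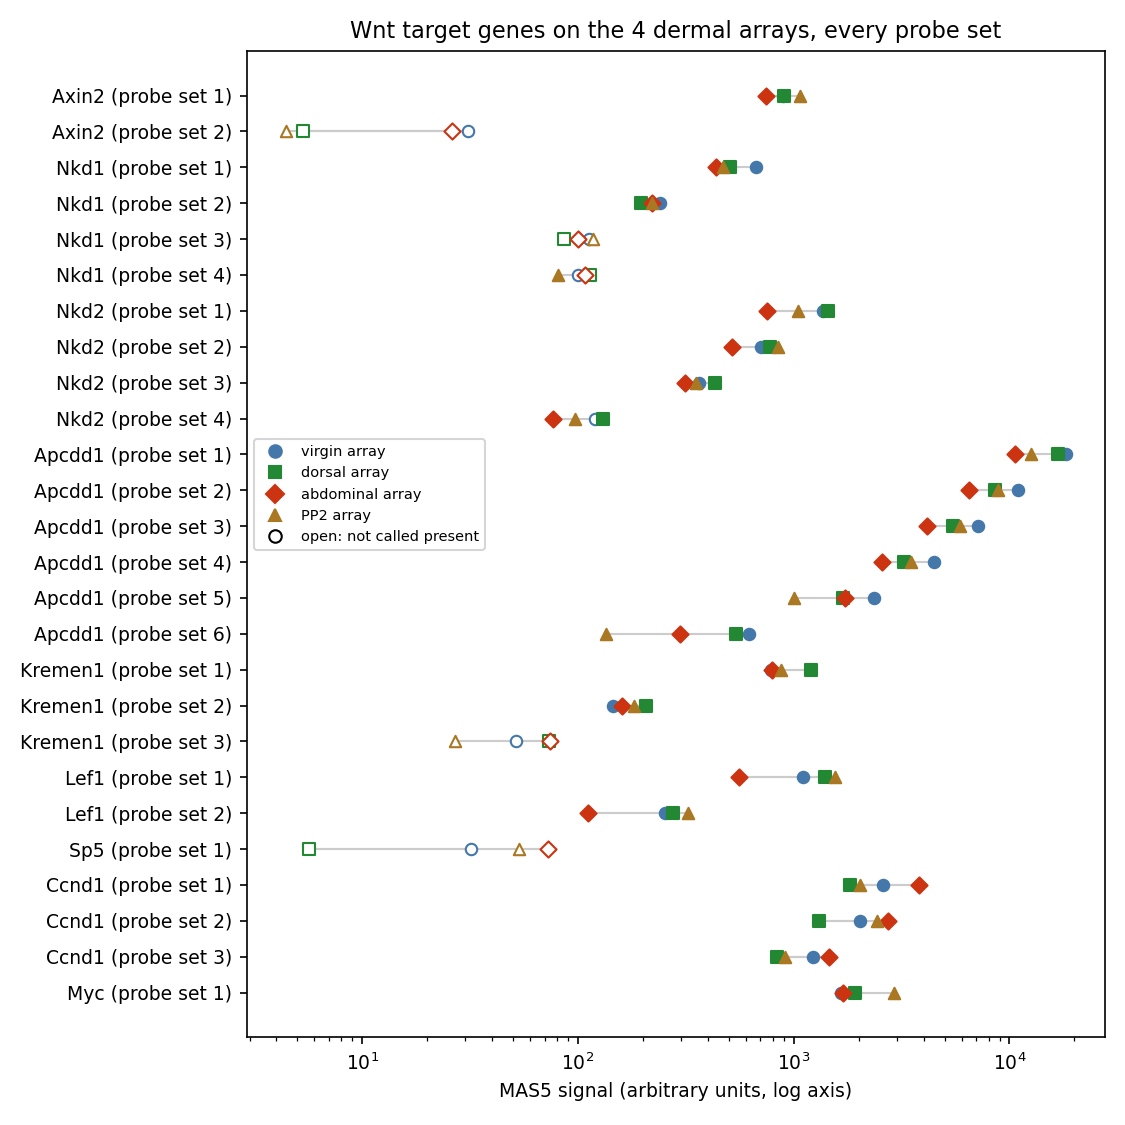
MAS5 signal (log axis, arbitrary units) of every member probe set on the virgin (circles), dorsal (squares), abdominal (diamonds) and PP2 (triangles) arrays, 1 array per group, open where not called present and numbered within a gene from bright to dim. The abdominal array is the lowest in both Lef1 probe sets, at 556 and 111, and the highest in all 3 Ccnd1 probe sets.

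The other transcription factor measured, Sp5, a zinc finger protein of the Sp family, was not detected. Its probe set 1422914_at read 32.0, 5.69, 72.2 and 53.0 on the virgin, dorsal, abdominal and PP2 arrays and was called absent on each, so no fold is given.

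The feedback inhibitors were all detected, and by brightest probe set their ranges were narrower than that of Lef1. Axin2 encodes a scaffold of the complex that destroys beta-catenin and is the most widely used readout of the pathway. Its probe set 1436845_at gave 888 on the virgin, 900 on the dorsal, 746 on the abdominal and 1069 on the PP2 array. The abdominal array was again the lowest and the PP2 array the highest, but the whole range was 1.43-fold, with log2 ratios of -0.25, -0.27 and -0.52 for abdominal over virgin, dorsal and PP2. Of the 11086 genes, 21.0% had an abdominal over virgin ratio as low as Axin2 or lower, so its difference was one that many genes showed. A second Axin2 probe set, 1421341_at, was absent on all 4.

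Nkd2, which like Nkd1 encodes a protein that binds Dishevelled, gave 1368 on the virgin, 1441 on the dorsal, 748 on the abdominal and 1041 on the PP2 array by 1434275_at. The abdominal array was lowest, 1.83-fold below virgin, 1.93-fold below dorsal and 1.39-fold below PP2. The next 2 probe sets were present on all 4 arrays, 1419466_at with 704, 774, 515 and 844 and 1419465_at with 363, 434, 312 and 351 in the order virgin, dorsal, abdominal and PP2. All 3 were lowest on the abdominal array, although the log2 ratio of abdominal over virgin ranged from -0.87 to -0.22 between them. None passed a ratio of 2. The dimmest, 1457600_x_at, was marginal on the virgin array at 120 and present at 131, 76.8 and 96.8 on the dorsal, abdominal and PP2 arrays.

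Nkd1 varied less. Its brightest probe set, 1429506_at, gave 669, 506, 438 and 468 on the virgin, dorsal, abdominal and PP2 arrays, so the virgin array was highest and the abdominal 1.53-fold below it. The second set present throughout, 1417278_a_at, gave 240, 195, 220 and 221, with the dorsal array lowest. The 2 sets therefore did not order the arrays alike. Of the remaining sets, 1440446_at was called present on the PP2 array alone, at 80.8, and 1429507_at on none.

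Apcdd1, a membrane glycoprotein that restrains Wnt signalling, had 6 probe sets, all present on all 4 arrays. The brightest, 1454822_x_at, gave 18235 on the virgin, 16748 on the dorsal, 10573 on the abdominal and 12610 on the PP2 array. All 6 were lower on the abdominal than on the virgin array, with log2 ratios from -1.05 to -0.45 and a median of -0.79. They did not order the PP2 array alike. The 4 sets 1454822_x_at, 1449070_x_at, 1418382_at and 1437604_x_at were lower on the abdominal than on the PP2 array, whereas 1418383_at gave 1722 against 1003 and 1443639_at 298 against 135, with the PP2 array the lowest of the 4 in both. The log2 ratio of abdominal over PP2 thus ran from -0.52 to 1.14 within the one gene. Only 1443639_at passed a ratio of 2 in a comparison with the abdominal array, being 2.08-fold higher on the virgin and 2.20-fold lower on the PP2 array, so Apcdd1 counted as lower in the first and higher in the second, the latter not after quantile normalization. On the PP2 array the 3' to 5' signal ratio of the Gapdh control probe sets, a measure of RNA integrity and labelling, was 5.84. It was 1.41 on the abdominal, 2.51 on the virgin and 2.97 on the dorsal array. The same ratio of the actin control sets was 2.70 on the PP2, 2.03 on the abdominal, 2.64 on the virgin and 4.14 on the dorsal array. The controls thus did not rank the arrays alike, and the part of RNA integrity or labelling in the split was not tested. Sets whose names end in _x_at can cross-hybridise with other transcripts.

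Kremen1, a receptor for Dickkopf proteins that takes part in removing LRP co-receptors from the cell surface, was highest on the dorsal array. By 1435472_at it gave 783, 1200, 789 and 874 on the virgin, dorsal, abdominal and PP2 arrays, and by 1445252_at 145, 206, 160 and 181. Both sets had the dorsal array at the top and the virgin at the bottom, although quantile normalization turned the small difference between virgin and abdominal in the first set, and the dorsal array was 1.52-fold above the abdominal by the first set. The remaining set, 1421387_at, was absent on all 4.

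**Figure D2:**
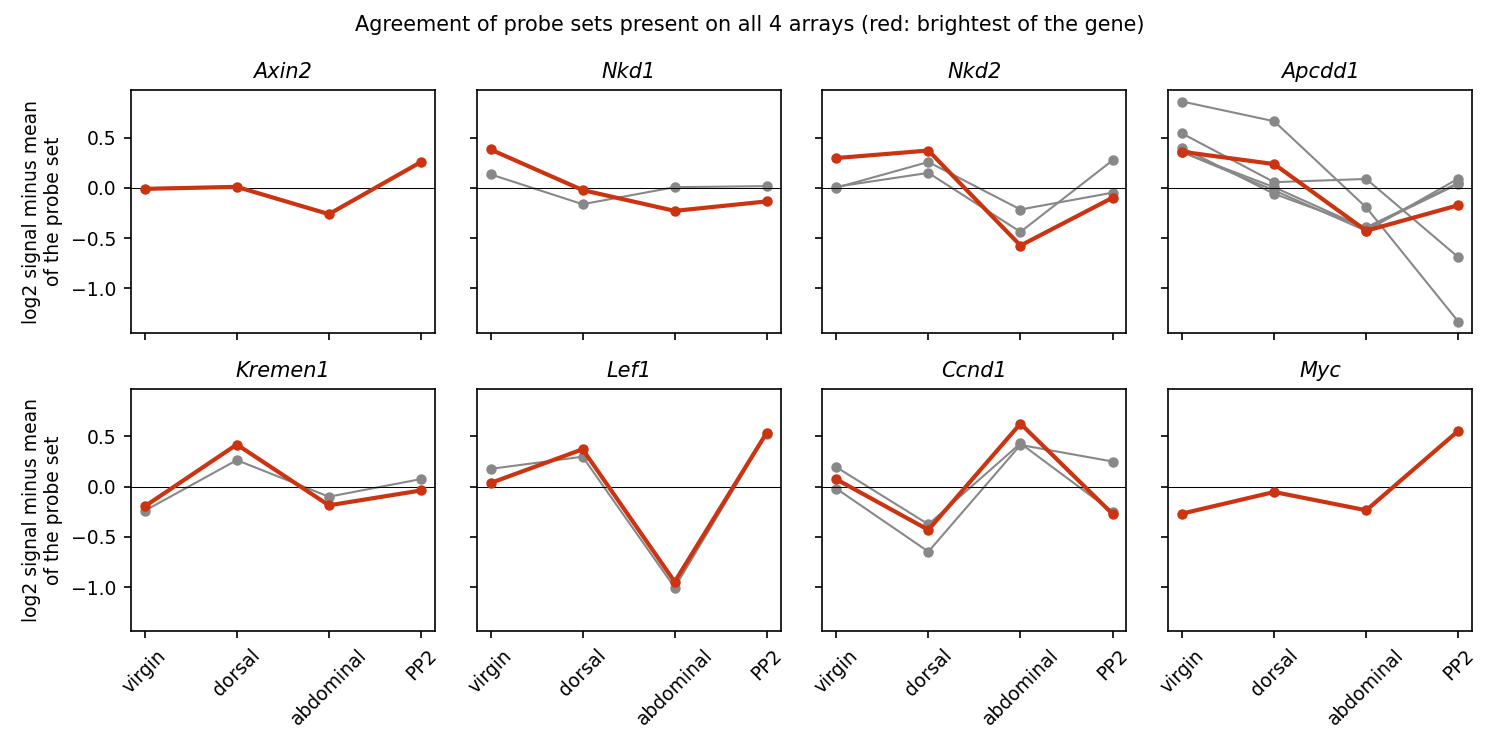
Log2 signal of each probe set present on all 4 arrays, minus its own mean over the arrays (vertical axis), on the virgin, dorsal, abdominal and PP2 arrays (horizontal axis), with the brightest set of each gene in red and the others in grey. The lines of Lef1 and of Kremen1 run together, one Ccnd1 line parts from the others on the PP2 array, and of the 6 Apcdd1 lines 2 end far below the rest there.

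The growth regulators did not share the direction of Lef1. Ccnd1 encodes cyclin D1, which drives entry into the cell cycle, and by 1417420_at it gave 2590 on the virgin, 1827 on the dorsal, 3802 on the abdominal and 2039 on the PP2 array. It was highest on the abdominal array, 1.47-fold over virgin, 1.87-fold over PP2 and 2.08-fold over dorsal, log2 ratios of 0.55, 0.90 and 1.06. The other sets gave 2026, 1311, 2738 and 2442 (1448698_at) and 1234, 832, 1454 and 907 (1417419_at) on the virgin, dorsal, abdominal and PP2 arrays. All 3 were highest on the abdominal and lowest on the dorsal array. They differed most over PP2, where the log2 ratio ran from 0.17 to 0.90.

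Myc, a transcription factor of cell growth, stood out on another array. Its only probe set, 1424942_a_at, gave 1654, 1921, 1693 and 2930 on the virgin, dorsal, abdominal and PP2 arrays. The virgin, dorsal and abdominal arrays lay within 1.16-fold of one another, and the PP2 array was 1.73-fold above the abdominal.

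Counted as a group, few members passed the ratio of 2. Of the 8 detected members, 0 were higher on the abdominal than on the virgin array, where 5.69% of 12961 tested genes were higher, and 2, Apcdd1 and Lef1, were lower, where 6.34% of genes were. Against the PP2 array, 1 member (Apcdd1) was higher on the abdominal array beside 12.6% of genes and 1 (Lef1) lower beside 5.12%. Against the dorsal array, 1 (Ccnd1) was higher beside 8.54% and 1 (Lef1) lower beside 8.81%. Counts of 1 or 2 among 8 members are too small to set against these shares.

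In the pairs that leave out the abdominal array few members passed the ratio, and these counts too are too small to set against the shares. Between the dorsal and virgin arrays no member was higher on the dorsal (0 of 8, beside 7.43% of genes) or lower (0 of 8, beside 6.71%). Apcdd1 was the one member lower on the PP2 array than on the virgin (1 of 8, beside 12.0% of genes) and than on the dorsal array (1 of 8, beside 15.6%), in the first case by 1418383_at and 1443639_at and in the second by 1443639_at alone. No member was higher on the PP2 array than on the virgin (0 of 8, beside 4.99%) or the dorsal array (0 of 8, beside 8.16%). The PP2 level of Lef1 exceeded the virgin level 1.42-fold and the dorsal level 1.12-fold.

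**Figure D3:**
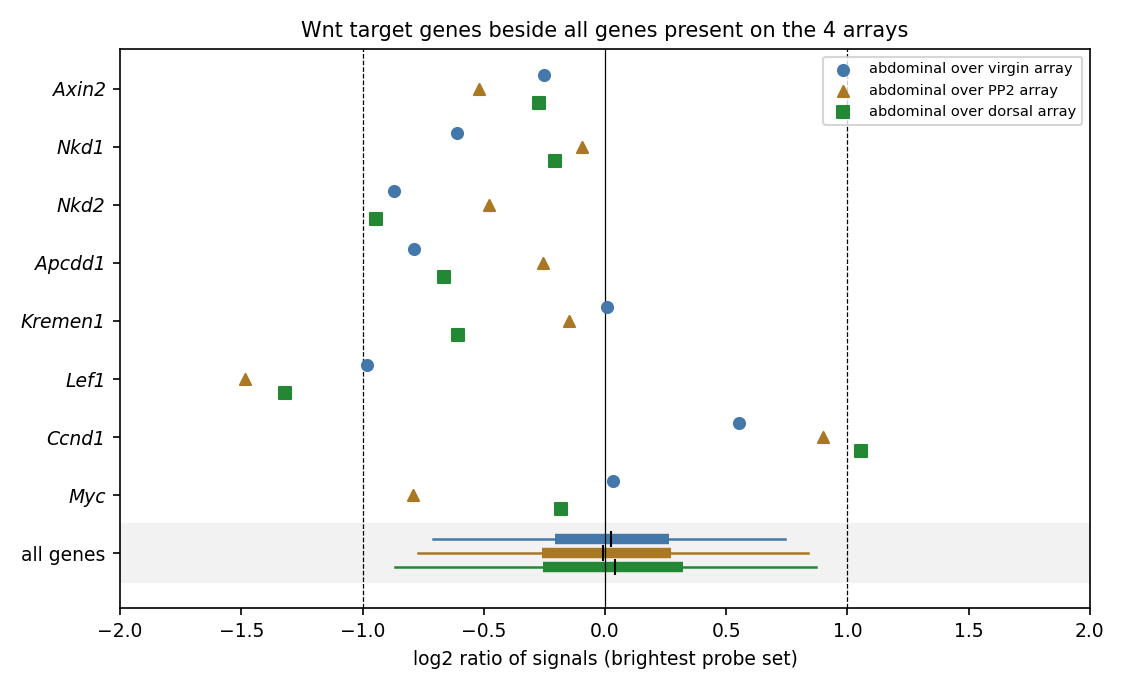
Log2 ratio of the abdominal over the virgin (circles), PP2 (triangles) and dorsal (squares) array for the brightest probe set of each of the 8 detected members, with dashed lines at a ratio of 2. The bottom row gives the median (tick), the middle 50% (thick bar) and the 5th to 95th percentile (thin line) over 11086 genes present on all 4 arrays. Lef1 lies left of the thin line in all 3 comparisons. Nkd2 lies left of it over virgin and dorsal, Apcdd1 over virgin and Myc over PP2. Ccnd1 lies right of it over PP2 and dorsal.

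The order of the 4 arrays was also read for each member, after the data were seen and on a list chosen with earlier results known. The counts below are therefore a description, and no excess over the shares of all genes is read from them. By brightest probe set, the abdominal array was the lowest of the 4 in 5 of 8 members, Apcdd1, Axin2, Lef1, Nkd1 and Nkd2. Of all 11086 genes, 18.7% had it lowest. Nkd1 counted by a small margin, 438 against 468 on the PP2 array, and its second set had the dorsal array lowest. With the PP2 array left out, the abdominal array was the lowest of the 3 vehicle arrays in 5 of 8 members, beside 29.1% of genes. Scaling each array to one median kept 5 (18.1% of genes), and quantile normalization gave 7, adding Kremen1 and Myc (19.5% of genes). Over single probe sets, 11 of the 20 member sets had the abdominal array lowest, beside 18.5% of 19471 sets, but 6 of the 20 belong to Apcdd1 alone. The abdominal array was the highest in 1 member, Ccnd1, beside 21.3% of genes, and the PP2 array in 3, Axin2, Lef1 and Myc, beside 31.6%.

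The median log2 ratio over the 8 members was -0.43 for abdominal over virgin, -0.37 over PP2 and -0.44 over dorsal. The medians over all detected genes were 0.02, 0.00 and 0.04. When each array was scaled to one median, the median of all genes moved to -0.11 over PP2 and 0.11 over dorsal, and that of the members to -0.47 and -0.36. The members ran from -0.98 (Lef1) to 0.55 (Ccnd1) over virgin, from -1.49 to 0.90 over PP2 and from -1.32 to 1.06 over dorsal, with the same 2 genes at the ends each time.

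The genes whose levels over the 4 arrays were most like those of Lef1, by Euclidean distance between log2 signals centred on each gene's mean among 11085 other genes, were Tnfrsf21 (distance 0.16), Fxyd2 (0.20) and Ifitm1 (0.21). Tnfrsf21, a death receptor, read 885 on the virgin, 1267 on the dorsal, 516 on the abdominal and 1384 on the PP2 array. For Ccnd1 the nearest were Asb5 (0.05), Pccb (0.09) and Slc36a2 (0.10), and Pccb, a subunit of propionyl-CoA carboxylase, read 507, 377, 718 and 399 in the same order. Such likeness rests on 4 values per gene and is a description.

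Other genes reported as beta-catenin targets were mixed in direction. Of 28 listed, 20 were present on at least 1 array. Over virgin 1 of 18 was higher on the abdominal array (Tnfrsf19) and 2 lower (Notum, Twist1). Over PP2 2 of 19 were higher (Ccnd2, Rnf43) and 4 lower (Bmp4, Fosl1, Notum, Twist1), and over dorsal 1 of 20 was higher (Birc5) and 3 lower (Fosl1, Nrcam, Twist1). Ccnd2 and Nrcam passed by a probe set other than their brightest. Their brightest sets differed 1.16-fold (Ccnd2 over PP2) and 1.42-fold (Nrcam over dorsal). Of all genes, 5.69% were higher and 6.34% lower over virgin, 12.6% and 5.12% over PP2, and 8.54% and 8.81% over dorsal. The median log2 ratios of this list were 0.10, -0.07 and 0.16, beside -0.43, -0.37 and -0.44 for the members. Twist1, a helix-loop-helix transcription factor of mesenchyme, passed the ratio in all 3 comparisons. It gave 2948 on the virgin, 2610 on the dorsal, 1021 on the abdominal and 2794 on the PP2 array, so it was 2.89-fold, 2.56-fold and 2.74-fold higher on those arrays than on the abdominal. Notum, a secreted enzyme that inactivates Wnt proteins, gave 1132, 286, 356 and 869, low on both the dorsal and the abdominal array. Rnf43, a ubiquitin ligase that removes Frizzled receptors, ran the other way, with 111, 162, 217 and 48.9. It was 4.43-fold higher on the abdominal than on the PP2 array. Its PP2 signal was dim beside the median present signal of 372 there. The part of RNA integrity or labelling on the PP2 array, with its Gapdh ratio of 5.84, was not tested for this or any other fold over PP2. Fosl1, a subunit of AP-1, was absent on the virgin and abdominal arrays and present on the dorsal at 357 and on the PP2 at 250, at least 4.36-fold and at least 3.06-fold above the abdominal signal.

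Among the machinery of the pathway, 0 of 10 detected genes of the destruction complex passed the ratio over virgin in either direction, 1 (Apc) was higher over PP2 and 1 (Fbxw11) lower over dorsal, each by a probe set other than its brightest. Btrc, which marks beta-catenin for degradation, was lowest on the abdominal array at 142, against 274 on the virgin, 218 on the dorsal and 236 on the PP2 array. Of 17 genes of the nuclear complex, 0 were higher and 2 (Tle3, Tle4, co-repressors of TCF/LEF) lower over virgin, 4 (Crebbp, Ctnnb1, Ldb1, Tle3) higher and 0 lower over PP2, and 1 (Ctnnb1) higher and the same 2 Tle genes lower over dorsal. For every count in this paragraph, the shares over all genes were as follows. Over virgin 5.69% were higher and 6.34% lower, over PP2 12.6% and 5.12%, and over dorsal 8.54% and 8.81%. Of the nuclear complex genes only Ldb1 passed by its brightest probe set. Ldb1, an adaptor of this complex, gave 726, 953, 827 and 252 on the virgin, dorsal, abdominal and PP2 arrays, 3.28-fold higher on the abdominal than on the PP2 array. Ctnnb1, beta-catenin itself, read 17160, 14428, 15700 and 15805 by its brightest set. Of the receptor-proximal genes, 2 were higher and 1 lower over virgin, and 1 was higher and 2 lower over PP2 and over dorsal. By brightest probe set only Lrp5 passed over virgin, Porcn over PP2, and Porcn and Ror1 over dorsal. Porcn, which lipidates Wnt proteins for secretion, gave 229, 402, 187 and 386, with the dorsal and PP2 arrays 2.14-fold and 2.06-fold above the abdominal.

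Markers of other cells moved along with these arrays. Genes of the hair matrix and hair shaft were far higher on the abdominal array, where 11 of the 13 listed were present and their signals summed to 23569, against 856 on the virgin, 1527 on the dorsal and 1595 on the PP2 array. All 11 were higher on the abdominal than on the virgin array (5.69% of all genes were). Against the PP2 array (12.6% of all genes) and against the dorsal array (8.54%), 10 of 11 were higher. Krtap8-1, a hair keratin-associated protein, read 107 on the virgin, 470 on the dorsal, 10723 on the abdominal and 509 on the PP2 array. It gave the largest part of the abdominal sum, and the virgin, dorsal and PP2 sums include signals called absent. Such sums add signals of unlike probes and lean to the brightest genes. The dermal papilla list, of which Alx4 was present nowhere, summed to 34298 on the virgin, 23373 on the dorsal, 15007 on the abdominal and 30818 on the PP2 array, most of it from Crabp1 (18584, 3186, 3586 and 10496) and Lepr (6814, 11853, 5166 and 10829). Over virgin 1 of 11 genes was higher on the abdominal array (Corin, by at least 2.86-fold) and 5 lower. Over PP2 0 were higher and 5 lower, and over dorsal 0 were higher and 4 lower. Of all genes, 6.34% were lower over virgin, 5.12% over PP2 and 8.81% over dorsal. The papilla list did not move as one, and its median log2 ratios were -0.66, -0.92 and 0.17. Prdm1, a transcription factor of the early papilla, gave 1150, 722, 358 and 1081 and had the abdominal array lowest, as Lef1 did. Hhip, Lepr and Sox2 also had it lowest, whereas Corin, Ntn1, Alpl and Sox18 were higher on the abdominal than on the PP2 and dorsal arrays. Sox2, which marks a subset of papillae, gave 832, 3635, 527 and 2425 on the virgin, dorsal, abdominal and PP2 arrays. The part of either list in the levels of Lef1 or of any other member was not tested, and in such bulk RNA fewer cells of a type and less RNA per cell cannot be told apart.

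**Figure D4:**
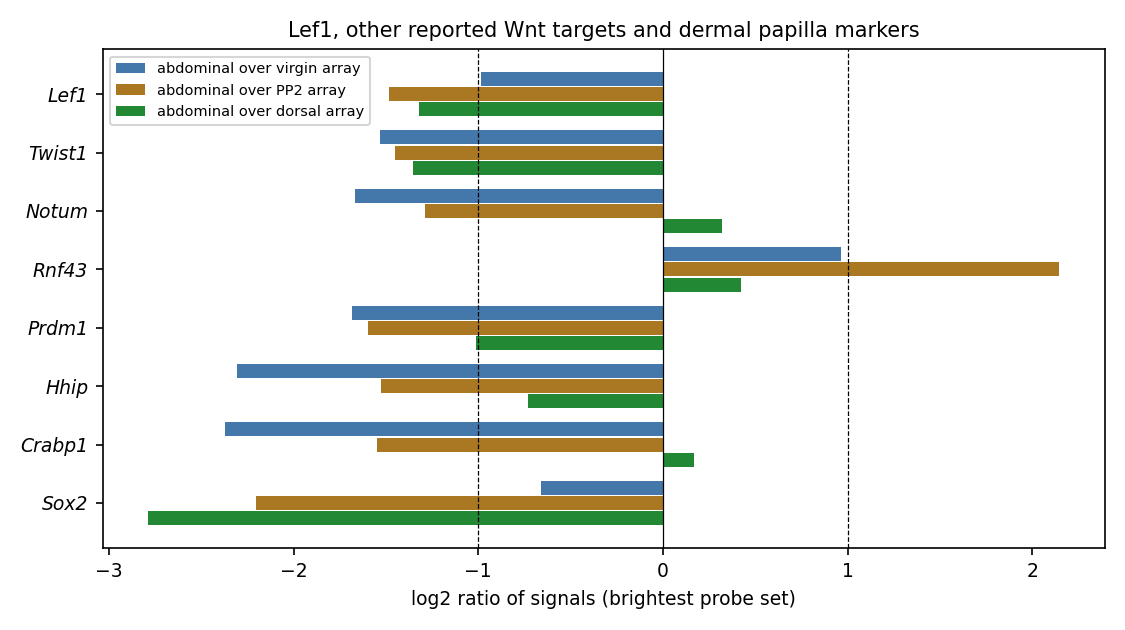
Log2 ratio of the abdominal over the virgin, PP2 and dorsal array (bars from 0, brightest probe set, 1 array per group) for Lef1, for 3 other reported Wnt targets (Twist1, Notum, Rnf43) and for 4 dermal papilla markers (Prdm1, Hhip, Crabp1, Sox2), with dashed lines at a ratio of 2. Lef1, Twist1, Prdm1, Hhip and Sox2 are below 0 in all 3 comparisons, Notum and Crabp1 are above 0 over dorsal, and Rnf43 is above 0 throughout. The papilla markers drawn are those with the largest absolute log2 ratios of their list. Corin, Ntn1, Alpl and Sox18 of the same list, not drawn, are above 0 over PP2 and over dorsal. Fosl1 is left out because it was not present on the abdominal array.

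Since Lef1 is also transcribed in T cells, a T cell list was read beside it. Of the 13 listed genes 6 were present on at least 1 array. Cd3g was present on all 4, at 125 on the virgin, 46.1 on the dorsal, 97.9 on the abdominal and 89.2 on the PP2 array, while Cd3e, Cd3d and Cd4 were present on none. Cd8a was present on the virgin and abdominal arrays by its brightest probe set, and on the PP2 array by another. Over virgin 1 of 5 genes was lower on the abdominal array (Cd8a, not by its brightest set), beside 6.34% of all genes. Over PP2 1 of 6 was lower (Thy1, beside 5.12%), and over dorsal 1 of 4 was higher (Cd3g, beside 8.54%). The summed signal of 7976, 7562, 5289 and 9922 on the virgin, dorsal, abdominal and PP2 arrays came mostly from Thy1, which fibroblasts also transcribe. Proliferation markers, read beside Ccnd1, summed to 7286, 4869, 8216 and 10956 on the same arrays. Of 9, 6 were higher on the abdominal than on the dorsal array (beside 8.54% of all genes), Mki67 with 777 against 208. Over virgin 1 was higher (Top2a, beside 5.69%) and 1 lower (Bub1, beside 6.34%). Over PP2 1 was higher (Top2a, beside 12.6%) and 0 lower. Mki67 read 720 on the PP2 array. Between the PP2 and dorsal arrays the Ccnd1 sets differed, the brightest by 1.12-fold and 1448698_at by 1.86-fold, both higher on PP2. Of the fibroblast genes, 12 of 12 were present on every array with sums from 86407 to 126539. Over virgin 2 of these 12 were higher on the abdominal array and 4 lower, over PP2 1 was higher and 3 lower, and over dorsal 6 were higher and 1 lower. Several passed only by a probe set other than their brightest. By brightest set over virgin, only Col1a1 was higher and only Pi16 lower past the ratio. Some had the abdominal array lowest, as Lef1 did, among them Prrx1, a homeobox gene of mesenchyme, with 3039, 2097, 1585 and 3239 and Pdgfra, a growth factor receptor, with 2398, 2285, 1778 and 4439 on the virgin, dorsal, abdominal and PP2 arrays. Col1a1, a collagen chain, was highest there, with 4844, 3344, 11530 and 6630. Keratinocyte genes were also present on every array, 10 of the 11 listed, with sums from 79893 on the PP2 to 151415 on the dorsal array. Presence of fibroblast genes thus does not set dermis apart from epidermis. Over virgin 2 of these 10 were higher on the abdominal array and 0 lower. Over PP2 4 were higher and 0 lower, and over dorsal none passed. Of all genes, 5.69% were higher and 6.34% lower over virgin, 12.6% and 5.12% over PP2, and 8.54% and 8.81% over dorsal. Adipocyte genes summed to 22617 on the PP2 and 43931 on the abdominal array, nearly all of it from Fabp4 (21517 and 41761). Cidec, Lep and Retn of that list were present nowhere. None of these lists was tested for its part in the members' levels.

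The arrays were alike in overall detection, with 58.4% to 59.7% of 45101 probe sets called present and a median present signal between 372 and 423.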

How the data were processed

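Dermal cells were freed from skin from which fat had been scraped, by dispase and then collagenases with hyaluronidase, and labelled RNA was hybridised to Affymetrix Mouse430_2 arrays, 1 per group. The authors deposited MAS5 signals, an intensity on a linear scale made in Affymetrix Expression Console 1 with each array scaled to one trimmed mean, together with detection calls. No genome build enters these values. From the deposited intensity, ratios between arrays were computed with Python 3.11.15, numpy 2.4.6 and pandas 2.3.3, and figures were drawn with matplotlib 3.10.9. Of 45101 probe sets, 34945 had 1 gene symbol, 932 several and 9160 none, 64 were control probe sets, and 34741 of the 34945 matched the gene table by Entrez number. A separate table of the series held the same signals, differing at 0 probe sets, and 0 columns lacked a sample.

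A gene was counted where 1 of its probe sets differed by a ratio above 2 and was present on the brighter array. Folds against an undetected signal are lower bounds against that signal or the dimmest present one, whichever was higher. No test was possible with 1 array per group. The number of arrays limits precision. Each member is named with every probe set. Of each pathway or marker list, up to 4 detected genes with the largest difference are named, and other list genes were named after their values were seen, as members of a small count or, for Ctnnb1, as the pathway's centre. Members and lists were chosen with earlier results of these data known. Alternatives changed the scaling (one median, quantile), the detection filter, the ratio and the probe set that stands for a gene.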

Additional observations from a re-analysis of the deposited data

How the results depend on the processing

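No paired analysis was possible because each group had 1 array, and for the same reason no replicate could be left out. Counts of members are small and moved with the settings. Over virgin, the members higher went from 0 to 1 without the detection filter, and the members lower from 2 to 4 at a ratio above 1.5, to 0 above 3 and to 0 by brightest probe set alone. Over PP2, the members higher went from 1 to 0 after quantile normalization, 3 without the filter, 2 above 1.5, 0 above 3 and 0 by brightest probe set, and the members lower from 1 to 3 above 1.5 and 0 above 3. Over dorsal, the members higher went from 1 to 3 without the filter and 0 above 3, and the members lower from 1 to 4 above 1.5 and 0 above 3. The causes were not tested beyond what each setting changes by construction.

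The median log2 ratio of the members stayed below 0 in every setting tried. Over virgin it was -0.43, and -0.39 with one median, -0.46 after quantile normalization, -0.25 with undetected genes and -0.31 with the mean of the detected probe sets. In the same order it was -0.37, -0.47, -0.42, -0.25 and -0.29 over PP2, and -0.44, -0.36, -0.39, -0.27 and -0.36 over dorsal. Of 64 single log2 ratios, 0 changed sign or side of a ratio of 2 with one median. After quantile normalization 3 changed sign, Myc and Kremen1 (1435472_at) over virgin and Apcdd1 (1418383_at) over dorsal, Lef1 (1454734_at) over virgin passed a ratio of 2 at -1.02, and Apcdd1 (1443639_at) over PP2 fell under it at 0.90. Counts of genes with the abdominal array lowest were examined after seeing the data, as were their alternatives.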
